A study of Mus musculus with 8 samples.

Results

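The 10 genes described here encode transcription factors that pattern the mesenchyme of the developing gut: *Foxf1*, *Foxf2*, *Foxl1*, *Barx1*, *Nkx2-3*, *Nkx2-5*, *Nkx3-2*, *Isl1*, *Osr1* and *Six2*. They were chosen by name, as rows of the mRNA count table with those symbols, and 10 of 10 were found among 29092 genes. The libraries came from mouse embryos at E13.5 that carried the *Ednrb-EGFP* reporter, which marks cells using the *Ednrb* regulatory sequence, bred from heterozygous reporter mice and wild-type C57BL/6J mice. Bowel from stomach to anus was dissociated and sorted into GFP+ enteric neural crest-derived cells (ENCDCs), the precursors of enteric neurons and glia, and GFP- gut cells, which hold everything else in the bowel, with 4 libraries of each. Neither population carried a mutation under study, the labels give the genotype as wild-type, and a library could hold RNA from more than 1 sample. Each library held 13250893 to 13267220 counts.

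Gut mesenchyme is the mesoderm-derived layer between the epithelium and the outer lining, and it gives rise to smooth muscle, fibroblasts and interstitial cells. Hedgehog ligands made by the epithelium act on it, and forkhead factors of the Foxf and Foxl groups are well-known targets of that signal. Along the length of the gut, homeobox factors divide it into regions: *Barx1* marks the stomach, *Nkx2-3* the intestine, and *Nkx2-5*, *Nkx3-2*, *Six2* and *Isl1* take part in forming the distal stomach and the pyloric sphincter. Several of these genes also act outside the gut, *Nkx2-5* and *Isl1* in the heart, *Isl1* in motor and sensory neurons, and *Osr1* and *Six2* in the kidney.

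Of the 10 factors, 10 were lower in ENCDCs and 0 were higher (edgeR quasi-likelihood test, adjusted p under 0.05), where 20.9% of the 18866 genes tested were lower and 17.0% were higher. Expressed as ENCDCs over gut cells, the median log2 fold change was -4.29 for the factors and -0.041 for all genes tested. Every ENCDC library lay below every gut library for 10 of 10 factors, against 21.3% of all genes. All 10 were also called with more than 8-fold lower counts, which held for 9.81% of all genes. In bulk RNA, fewer cells of a type and less RNA per cell cannot be told apart, and a gut library mixes mesenchyme with other cells.

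**Figure D1:**
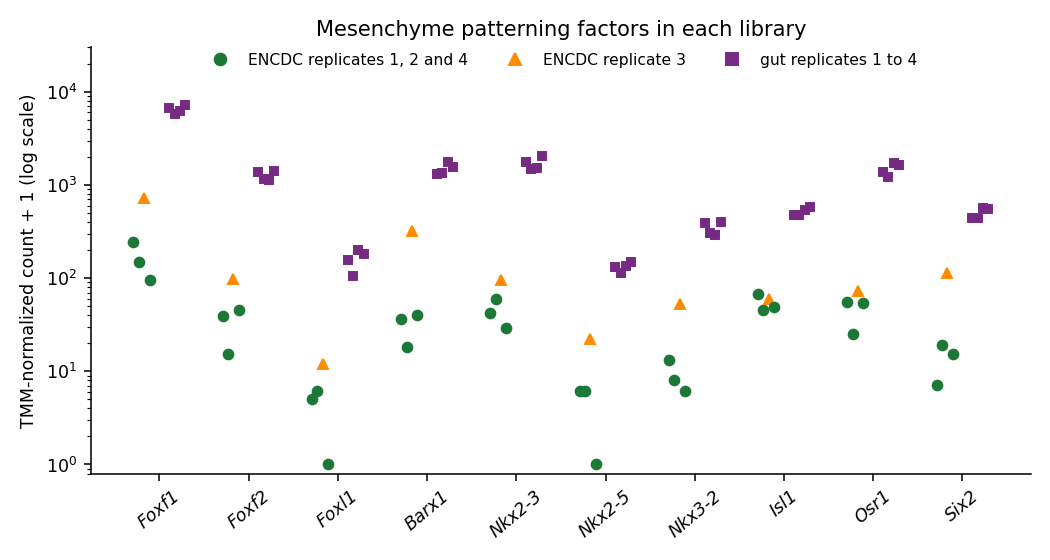
TMM-normalized count plus 1 on a log axis for each of the 10 factors in each of the 8 libraries; green circles are ENCDC replicates 1, 2 and 4, orange triangles are ENCDC replicate 3 and purple squares are the 4 gut replicates. For each factor the gut libraries sit above all ENCDC libraries, and replicate 3 is the highest ENCDC library for 9 of 10 factors.

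The forkhead factors lie in 2 clusters in the mm10 genome. *Foxf1* (chr8:121084386-121088144, plus strand) and *Foxl1* (chr8:121127940-121130644, plus strand) start 43554 bases apart, and the gene for the long noncoding RNA *Fendrr* starts 1276 bases from *Foxf1* and runs the other way. *Foxf2* (chr13:31625816-31631403, plus strand) is its near relative on another chromosome. The sequences before the starts of 3 genes are shown, taken from RefSeq promoters (GRCm38.p6), and their part in the fold changes was not tested. The first is the 250 bases before *Fendrr* (chr8:121083111-121083360, minus strand), which lie between it and *Foxf1*. *Fendrr* is not among the 10 factors. The others are those before *Foxf2* (chr13:31625566-31625815, plus strand) and those before *Nkx2-3* (chr19:43612075-43612324, plus strand). Capitals mark a forkhead motif (TGTTTAC or its reverse complement GTAAACA) in the first, GC boxes (GGGCGG) in the second, and overlapping CCAAT boxes, one on each strand, and a GC box (CCGCCC on this strand) in the third.
Fendrr: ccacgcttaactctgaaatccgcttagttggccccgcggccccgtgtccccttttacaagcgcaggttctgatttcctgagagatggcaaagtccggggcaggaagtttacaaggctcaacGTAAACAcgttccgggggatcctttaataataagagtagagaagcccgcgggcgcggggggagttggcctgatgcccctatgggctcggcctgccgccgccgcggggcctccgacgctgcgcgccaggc
Foxf2: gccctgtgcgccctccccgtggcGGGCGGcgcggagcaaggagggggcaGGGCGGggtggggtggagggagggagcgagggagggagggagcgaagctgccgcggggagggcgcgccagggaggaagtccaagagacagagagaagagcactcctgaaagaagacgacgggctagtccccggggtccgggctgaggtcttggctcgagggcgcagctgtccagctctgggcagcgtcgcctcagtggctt
Nkx2-3: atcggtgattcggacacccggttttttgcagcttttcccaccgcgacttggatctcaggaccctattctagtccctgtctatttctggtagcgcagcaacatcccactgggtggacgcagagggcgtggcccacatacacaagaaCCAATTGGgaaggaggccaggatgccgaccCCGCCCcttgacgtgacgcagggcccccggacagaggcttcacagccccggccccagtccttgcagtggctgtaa
Promoters of 7 of the 10 members were found, those of *Nkx3-2*, *Foxf2*, *Barx1*, *Isl1*, *Nkx2-5*, *Six2* and *Nkx2-3*. A GC box was present in 5 of these 7 and in 32.7% of 32851 promoters of the same length, and CCAAT was present in 3 of 7 and in 33.8%. The forkhead motif was in 0 of 7 and 3.17%, an Nkx2 motif (CACTTAA) in 0 of 7 and 2.10%, a Gli motif (GACCACCCA) in 0 of 7 and 0.225%, and TATAAA in 0 of 7 and 12.4%. GC content was 85.6% for *Barx1*, 71.6% for *Foxf2*, 71.2% for *Isl1*, 68.8% for *Nkx3-2*, 64.8% for *Six2*, 60.0% for *Nkx2-3* and 49.2% for *Nkx2-5*. All but that of *Nkx2-5* lay above the median of 52.4% for all promoters. The part of GC content in the number of GC boxes was not tested. Of the letters searched, the GC box was found in the most of these 7 promoters.

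*Foxf1*, the forkhead factor needed for lateral plate mesoderm and gut smooth muscle, had the highest count of the 10. Its TMM-normalized counts were 242, 148, 723 and 95.0 in ENCDC replicates 1 to 4, and 6679, 5773, 6219 and 7203 in gut replicates 1 to 4. Even the highest ENCDC library was far below the lowest gut library, and the log2 fold change was -4.42 (SE 0.52, edgeR adjusted p = 6.16e-05), a 21.4-fold lower level. *Foxf2*, which acts with *Foxf1* in intestinal mesenchyme, had counts of 38.6, 14.2, 97.4 and 44.4 in ENCDCs and 1366, 1158, 1117 and 1412 in gut cells. It was 25.9-fold lower in ENCDCs (log2 fold change -4.69, SE 0.41). *Foxl1*, a marker of the mesenchymal cells beneath the epithelium, was the scarcest forkhead member, with 4.06, 5.08, 11.0 and 0 in ENCDCs and 155, 104, 198 and 179 in gut cells. The populations did not overlap for any of these 3 genes, and *Foxl1* was 30.7-fold lower (log2 fold change -4.94, SE 0.66), from 20 counts in all ENCDC libraries together.

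The stomach and pylorus factors were lower too, and *Barx1*, *Six2*, *Nkx3-2* and *Nkx2-5* varied widely among ENCDC libraries. *Barx1*, the homeobox gene that specifies stomach mesenchyme (chr13:48662998-48666507, plus strand), had counts of 35.5, 17.3, 316 and 39.2 in ENCDCs and 1303, 1330.2, 1765 and 1573 in gut cells. Replicate 3 stood far above the other ENCDC libraries, yet well below each gut library, and the log2 fold change was -3.87 (SE 0.71, edgeR adjusted p = 0.00133). *Six2*, a homeobox factor of the distal stomach and of kidney progenitors (chr17:85684277-85688274, minus strand), had the same shape, with 6.09, 18.3, 111 and 14.5 against 436, 443, 566 and 550.4. *Nkx3-2*, also called Bapx1 (chr5:41761483-41764501, minus strand), gave 12.2, 7.12, 52.2 and 5.16 against 394, 303, 290.1 and 403. For both, replicate 3 was again the high ENCDC library, and the log2 fold changes were -3.72 (SE 0.67) for *Six2* and -4.17 (SE 0.60) for *Nkx3-2*. *Nkx2-5*, a heart and pylorus factor (chr17:26838664-26845009, minus strand), was scarce, with 5.08, 5.08, 21.1 and 0 in ENCDCs and 131, 112, 134 and 149 in gut cells. It was 16.6-fold lower (log2 fold change -4.05, SE 0.76, edgeR adjusted p = 0.0015).

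*Isl1* encodes a LIM homeodomain factor (chr13:116298281-116309689, minus strand) and had the smallest fold change of the 10. Its counts were 66.0, 44.7, 59.2 and 48.5 in ENCDC replicates 1 to 4, and 481, 469.7, 541 and 586 in gut replicates 1 to 4. Here replicate 1, not replicate 3, was the highest ENCDC library, and the 4 values lay close together. The level was 9.49-fold lower in ENCDCs (log2 fold change -3.25, SE 0.20, edgeR adjusted p = 4.52e-07).

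*Nkx2-3* (chr19:43612325-43615892, plus strand), known from intestinal and splenic mesenchyme, and *Osr1* (chr12:9570116-9581500, plus strand), a zinc finger factor of early mesoderm, were both about as low as the forkhead genes. *Nkx2-3* had counts of 41.6, 59.0, 93.4 and 27.9 in ENCDCs and 1778, 1489.7, 1536 and 2057 in gut cells, a 30.8-fold difference (log2 fold change -4.95, SE 0.30). *Osr1* had 54.8, 24.4, 71.3 and 52.7 against 1363, 1211, 1741 and 1656, a 29.3-fold difference (log2 fold change -4.87, SE 0.27). Replicate 3 was the highest ENCDC library for both, at 93.4 with the next at 59.0 for *Nkx2-3*, and at 71.3 with the next at 54.8 for *Osr1*.

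Within gut cells, levels can be set against each other only per length of exon. *Foxf1* came first at 2678 ± 254 normalized counts per kb (SD, n = 4), followed by *Barx1* (1067 ± 156), *Nkx2-3* (812 ± 123), *Osr1* (723 ± 120.1) and *Foxf2* (535 ± 62.3). *Six2* (235 ± 32.5), *Nkx3-2* (202 ± 34.5), *Isl1* (131 ± 13.7), *Nkx2-5* (76.7 ± 8.89) and *Foxl1* (58.9 ± 15.0) were lower. The ranges over libraries overlapped for 5 pairs of neighbours in this order, *Barx1* and *Nkx2-3*, *Nkx2-3* and *Osr1*, *Osr1* and *Foxf2*, *Six2* and *Nkx3-2*, and *Nkx2-5* and *Foxl1*. *Foxf1* stood clear of *Barx1*, as did *Foxf2* of *Six2*, *Nkx3-2* of *Isl1* and *Isl1* of *Nkx2-5*. Gut replicate 4 had the highest count of 6 factors (*Foxf1*, *Foxf2*, *Nkx2-3*, *Nkx2-5*, *Nkx3-2* and *Isl1*) and gut replicate 3 that of the other 4 (*Foxl1*, *Barx1*, *Osr1* and *Six2*), while the highest gut library exceeded the lowest by 1.25-fold for *Foxf1* and *Isl1* and by 1.90-fold for *Foxl1*.

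**Figure D2:**
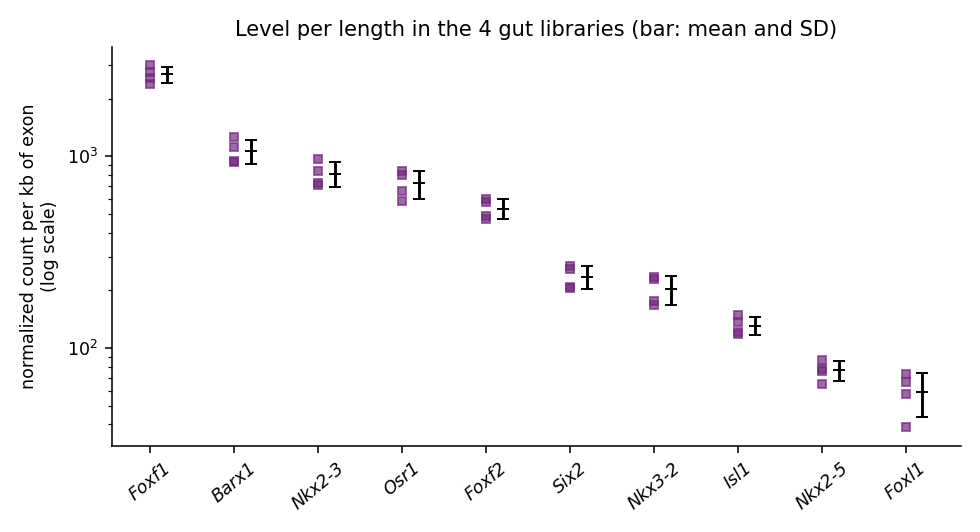
Normalized count per kb of exon, on a log axis, for each factor in the 4 gut libraries (squares), with the mean and SD as a bar beside them. *Foxf1*, at 2678, stands above the rest, and *Foxl1*, at 58.9, is at the bottom.

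*Isl1* took up a larger part of the summed level in 3 of the 4 ENCDC libraries. Its share of the summed level per kb of the 10 factors was 6.38 ± 2.96% in ENCDCs and only 2.01 ± 0.091% among gut libraries (SD over 4 libraries each). In ENCDC replicates 1, 2 and 4 it made up 7.61, 7.61 and 8.34%, and in replicate 3 it made up 1.97%, within the gut range of 1.88 to 2.07%. Ordered by mean level per kb, *Isl1* was number 8 in gut cells and number 7 in ENCDCs, or number 6 without ENCDC replicate 3.

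ENCDC replicate 3 stood apart from the other 3 ENCDC libraries in genes of mesenchyme and muscle, so the levels and fold changes of the factors were also computed without it. In replicates 1, 2 and 4, the mean of 9 factors came to between 1.91% (*Foxl1*) and 2.95% (*Osr1*) of the gut mean, and that of *Isl1* to 10.2%. Without replicate 3 the log2 fold changes of the 9 were -5.64 (*Foxl1*) to -5.08 (*Osr1*), and that of *Isl1* was -3.29 (SE 0.21). The 9 reference genes of mesenchyme (collagens, *Pdgfra*, *Dcn* and *Lum*) then had a median of -5.03 and the 10 factors one of -5.30. With all libraries these medians were -4.23 and -4.29. The 9 factors other than *Isl1* lay close together once replicate 3 was left out, and *Isl1* stayed nearer to the gut level.

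**Figure D3:**
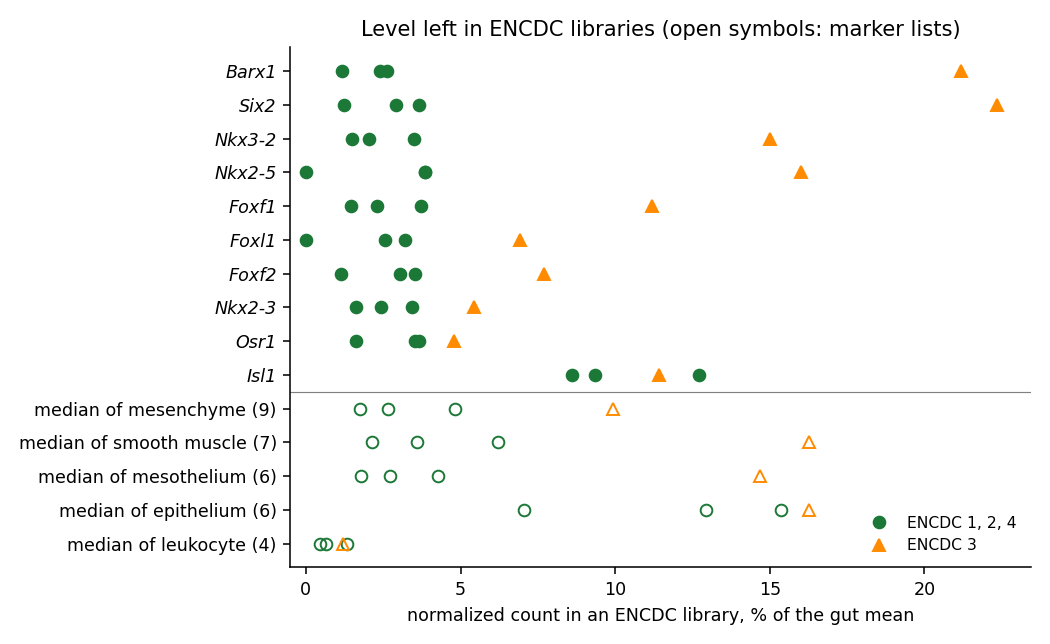
Normalized count in each ENCDC library as a percentage of the gut mean, for the 10 factors (filled symbols) and as the median over 5 marker lists (open symbols, number of genes in brackets); orange triangles are ENCDC replicate 3. Replicate 3 reached 22.3% of the gut mean for *Six2* and 21.2% for *Barx1*, and the 4 ENCDC libraries lay together, between 8.61 and 12.7%, for *Isl1*.

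The excess in replicate 3 was unequal across the factors. Its counts, set against the mean of the other 3 ENCDC libraries, were 10.3 times as high for *Barx1* (exact 95% counting interval 8.14 to 13.2), 8.61 times for *Six2* (5.91 to 12.8), 6.39 times for *Nkx3-2* (3.87 to 10.8) and 6.19 times for *Nkx2-5* (2.79 to 14.7). *Foxf1* (4.46, 3.97 to 5.02), *Foxl1* (3.60, 1.36 to 9.84) and *Foxf2* (3.01, 2.24 to 4.04) followed, and *Nkx2-3* (2.18, 1.65 to 2.87) and *Osr1* (1.62, 1.20 to 2.18) were lower. For *Isl1* the interval, 0.812 to 1.51 around 1.12, includes an equal level. The 4 largest ratios belong to factors of the stomach and pylorus, but so does the smallest, that of *Isl1*, and this grouping was made after the values were seen and was not tested. These intervals cover counting error only.

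Across 2694 genes called lower in ENCDCs with at least 20 counts in the ENCDC libraries, the median ratio of replicate 3 to the others was 1.05, with quartiles of 0.740 and 1.55, and replicate 3 was the highest ENCDC library for 40.4%. A ratio of 6 or more, seen in 4 of the 10 factors, was found in 3.49% of them. The median ratio was 3.09 for the reference mesenchyme genes, 3.16 for smooth muscle markers and 4.12 for mesothelium markers, against 0.923 for ENCDC markers. Marker sums moved the same way: the 9 mesenchyme genes summed to 12.5% of the gut mean in replicate 3 and 2.32 to 5.57% in the others, the 7 smooth muscle genes to 16.0% and 2.16 to 5.68%, and the 6 mesothelium genes to 12.8% and 3.06 to 3.68%. *Col3a1*, with the highest gut mean of the 9 mesenchyme genes (105737), weighs most in their sum. The replicate 3 ratios of the 9 ran from 1.25 (*Col5a1*) to 5.39 (*Pdgfra*). *Bnc1*, a mesothelium gene, was at 102 in replicate 3 and at 2.03 or less in the others, while *Upk3b*, another, was lowest there at 4.02. The 6 epithelium genes, by contrast, summed to 9.72, 14.4, 17.5 and 16.3% of the gut mean in ENCDC replicates 1 to 4. The part of these cell types in the levels of the 10 factors was not tested.

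Set against the reference mesenchyme genes within each library, as log2(count + 1) minus the mean over those 9 genes, 9 factors changed between populations by -0.63 (*Foxl1*) to 0.021 (*Six2*). The adjusted p of these ranged from 0.629 to 0.971 (exact permutation test, two-sided, 70 relabellings, smallest possible p = 0.0286). *Isl1* was 1.27 higher relative to the reference in ENCDCs (exact permutation p = 0.0571, adjusted p = 0.571 over the 10 factors). It lay above the gut range of -4.46 to -4.10 in ENCDC replicates 1, 2 and 4, at -3.11, -2.22 and -2.63, and within that range in replicate 3, at -4.16. With the collagens left out of the reference the difference for *Isl1* was 1.81 (exact permutation test, adjusted p = 0.286). Corrected over the 10 factors, a factor that stands alone cannot go below an adjusted p of 0.286 in this test. The test could therefore not call *Isl1* by itself, whatever its difference.

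Ratios between members of a family were compared in the same manner. *Foxf1* over *Foxf2* had a log2 ratio of 2.47 ± 0.97 over the ENCDC libraries and of 2.36 ± 0.083 over the gut libraries (SD, n = 4), and *Nkx2-3* over *Nkx2-5* had one of 3.25 ± 1.15 and 3.69 ± 0.12. Differences over the 6 pairs ran from -0.44 to 0.29 and the adjusted p was 0.857 for each (exact permutation test, two-sided). The ranges overlapped between populations in all 6 pairs, and the SD over ENCDC libraries was larger than that over gut libraries in all 6. At these low ENCDC counts a shift in the ratios smaller than that spread was not detectable. Corrected over 6 pairs, a single pair could not pass the permutation test even at the smallest possible p, whatever the size of its shift.

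Related members could in principle share reads. The longest exact stretch common to the coding sequences of *Foxf1* and *Foxf2* was 41 bases. It lay at positions 259 to 299 of the first and 415 to 455 of the second. That shared by *Nkx2-3* and *Nkx2-5* was 23 bases, at 544 to 566 and 520 to 542. Stretches with mismatches were not searched, so these lengths do not bound what a read could confuse.
Foxf1 and Foxf2: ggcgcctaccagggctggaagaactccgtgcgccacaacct
Nkx2-3 and Nkx2-5: ctgaagctcacgtccacgcaggt
Of windows of 50 bases, 0 were shared with any other annotated gene for *Barx1*, *Nkx2-3*, *Nkx2-5*, *Nkx3-2* and *Isl1*. For *Foxf1* and *Foxf2* the 49 shared windows of each (2.07 and 2.12%) fell in an annotated 98-base gene on the opposite strand, and the share was 0.866% for *Foxl1*, 0.596% for *Osr1* and 1.03% for *Six2*. The libraries did not keep strand.

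The Hedgehog pathway, which signals from the epithelium to this mesenchyme, was lower in 12 of 14 genes and higher in 1. The median log2 fold change was -1.93. Of all genes tested, 20.9% were lower and 17.0% were higher. The 12 include *Smo* (log2 fold change -0.38) and *Ihh* (-2.05), whose populations overlapped. The number lower fell as low as 9, without ENCDC replicate 1 or without gut replicate 3. *Ptch1*, the receptor and a target of the pathway, was at 257, 234, 796 and 479 in ENCDCs and 2104, 1676, 1787 and 1989 in gut cells (log2 fold change -2.10, SE 0.33). *Hhip*, a target that binds the ligands, fell further, with a log2 fold change of -4.05 (SE 0.32), and the co-receptor *Gas1*, the most abundant of the lower genes, was 3.06-fold lower. The populations of these 3 genes did not overlap.

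*Gli1*, the transcription factor most directly induced by the pathway, was at 10.2, 2.03, 135 and 26.9 in ENCDCs and 253, 231, 246 and 318 in gut cells. Its replicate 3 ratio of 10.4 (7.20 to 15.3) was close to that of *Barx1*. The log2 fold change of -2.59 was called (edgeR adjusted p = 0.0272), and without ENCDC replicate 1 or 4 or without any one of the gut libraries its adjusted p was 0.0507 to 0.0624. The ligand *Shh* was lower (log2 fold change -3.61) at low counts of at most 49.5 in any library. *Dhh*, the ligand of Schwann cells, was the 1 gene of the list that was higher in ENCDCs, with 6.09, 34.6, 79.3 and 10.3 against 0, 4.92, 5.92 and 4.95 (log2 fold change 3.01, edgeR adjusted p = 0.0395). This call was lost without ENCDC replicate 2 or 3, without any 1 of the gut libraries and with voom and limma, at adjusted p of 0.0606 to 0.115. *Sufu*, an inhibitor inside the cell, had a log2 fold change of -0.21 that did not pass the test.

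Among 19 other transcription factors of gut mesenchyme, 16 were lower and 2 higher, with a median of -3.18. *Tcf21*, a factor of visceral mesenchyme and the most abundant of the list in gut cells, was at 138, 51.9, 442 and 109 in ENCDCs and 2808, 3200.0, 2889 and 3663 in gut cells. *Tlx1*, a spleen factor, had the largest difference of the list, with a log2 fold change of -6.37 (SE 0.52) and at most 13.1 counts in an ENCDC library. *Hand2*, used by both mesenchyme and enteric neurons, went the other way, at 931, 842, 644 and 779 against 161, 242, 186 and 268 (log2 fold change 1.90, SE 0.19). *Nr2f1*, a nuclear receptor, was higher by 0.87 on the log2 scale (edgeR adjusted p = 0.0264), which was lost without ENCDC replicate 1 or gut replicate 1 or 2, at adjusted p of 0.0599 to 0.0930. *Gata5* was at 60.2 in ENCDC replicate 3 and at most 5.08 in the others, against 46.5 to 141 in gut cells. It did not pass the test (edgeR adjusted p = 0.0917), but passed without replicate 3, at a log2 fold change of -4.54 (edgeR adjusted p = 0.00019), and with DESeq2, voom and limma or the replicate block, at adjusted p of 0.00694 to 0.0470.

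Of 7 signals and effectors that act with these factors, 6 were lower and 0 higher, with a median of -3.21. *Sfrp1*, a secreted Wnt inhibitor made under *Barx1* in the stomach, was the most abundant and the most even over ENCDC libraries, at 951, 907, 915 and 1006 against 11084, 8964, 11739 and 10991 (log2 fold change -3.50, SE 0.10). *Sfrp2*, its partner in that role, had a log2 fold change of -3.14. *Bmp4*, a target of *Foxf1* and Hedgehog signals, was 26.2-fold lower and *Wnt5a* 7.15-fold lower. *Madcam1*, an adhesion molecule that depends on *Nkx2-3*, was at 0 to 23.1 in ENCDCs and 3.89 to 69.1 in gut cells, and did not pass the test (log2 fold change -1.73, SE 1.06).

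**Figure D4:**
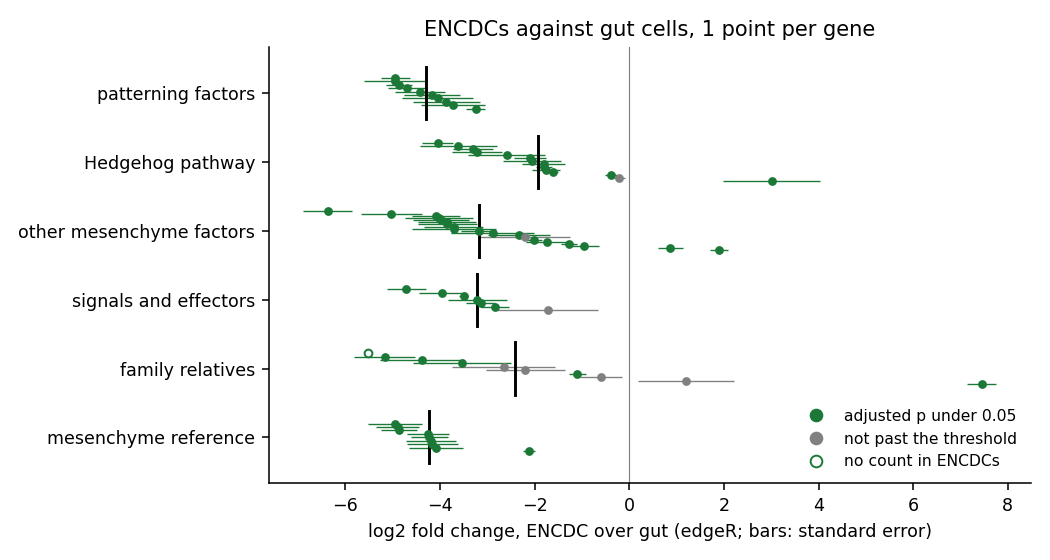
Log2 fold change (ENCDCs over gut cells), 1 point per gene with its standard error, for the 10 patterning factors and 5 other lists; green points passed the test, grey points did not, an open point had no count in ENCDCs, and black bars are list medians. The factors lie between -4.95 and -3.25, near the mesenchyme reference genes (median -4.23), while the Hedgehog list (median -1.93) reaches further to the right and *Foxd3* lies at 7.45.

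Close relatives of the 10 factors from the same families were mostly scarce. Of 21 listed, 13 were in the table and 10 had enough counts to be tested, of which 5 were lower and 1 higher. *Foxd3*, the forkhead factor of neural crest, was the 1 higher relative, at 589.8, 625, 507 and 598 in ENCDCs and 3.89, 4.92, 2.96 and 0.990 in gut cells (log2 fold change 7.45, SE 0.31). *Osr2*, the relative of *Osr1*, was at 10.2, 4.07, 3.01 and 0 against 179, 173, 150.0 and 137, and was 36.0-fold lower. *Isl2*, the relative of *Isl1*, was at 66.3 in ENCDC replicate 3 and at most 6.09 in the others, against 162 to 267 in gut cells. Its log2 fold change of -3.54 was called (edgeR adjusted p = 0.0205) but not with DESeq2 or without gut replicate 4, at adjusted p of 0.0704 and 0.0514. *Foxc2* had 0 counts in ENCDCs and 23 in gut cells, at least 7.54-fold lower when ENCDCs are set at 3 counts over the group. *Six5* was 2.15-fold lower, and *Six4*, at 37.6 to 149 and 110.3 to 212, did not pass the test.

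Genes beside the forkhead clusters did not all follow them. *Fendrr* was at 49.7, 31.5, 148 and 76.4 in ENCDCs and 944, 727, 720.2 and 924 in gut cells, 10.8-fold lower (log2 fold change -3.44, SE 0.39). *Mthfsd*, which lies between *Foxf1* and *Foxl1* and encodes a folate enzyme-like protein, was at 752, 773, 686 and 626 against 741, 754, 738 and 728, and its log2 fold change of -0.06 (SE 0.11) did not pass the test. *Gmds*, beside *Foxc1* on chromosome 13, had one of -0.37 (SE 0.18) that did not pass either, while *Foxq1*, which starts 69682 bases from *Foxf2*, was lower (log2 fold change -4.37) at no more than 39.5 counts. Of the 4843 exon bases of *Foxq1*, 3200 are shared with an antisense gene, and reads from those shared bases cannot be told apart.

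The marker lists were chosen with earlier results of these data known. On the ENCDC list, 8 of 8 markers were higher in ENCDCs. Lower were 9 of 9 mesenchyme, 7 of 7 smooth muscle, 6 of 6 epithelium, 4 of 4 leukocyte and 6 of 6 erythroid markers. So were 5 of 6 for mesothelium and 4 of 5 for endothelium. Among all genes tested, 20.9% were lower and 17.0% were higher. *Kdr*, on the endothelium list, was higher. Markers of organs in which some of the 10 factors are also used gave mixed results. Of 5 heart markers 4 were tested and 1 was lower. Their sums were 20.3, 22.4, 90.4 and 2.07 in ENCDC replicates 1 to 4 and 89.6 to 124 in gut cells. *Myh7* was at 72.3 in ENCDC replicate 3 and at 0 in the other ENCDC libraries. Of 9 pancreas markers 8 were tested and 5 were lower. Of 5 kidney markers 3 were tested and 2 were higher (*Eya1* and *Cited1*), with *Pax2* at 0 in gut cells. Of 7 markers of sensory or motor neurons 5 were tested, with 3 lower and 1 higher (*Pou4f1*), and *Lhx3* and *Prdm12* had no row in the table. Their part in the level of *Isl1* was not tested.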

How the data were processed

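The measurements are mRNA-seq read counts from 4 ENCDC (GFP+) and 4 gut (GFP-) libraries. The authors aligned reads to mm10 with STAR 2.4.2a and deposited PORT's minimum normalized read counts, whole numbers per gene. The series text speaks of small RNA and CPM, but the values are whole read counts that sum to about the same total in each library, so they were used as counts. The libraries are unstranded.

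Counts were compared with edgeR 4.0.16 (R 4.3.3; TMM factors, quasi-likelihood test, Benjamini-Hochberg over 18866 genes, called at adjusted p under 0.05). A gene entered the test if its mean count was 3 or more and if 3 of the 4 libraries of either population had a count, and 10 of 10 members passed. Normalized counts are counts divided by the TMM-scaled library size. Counts per kb use merged GENCODE M21 exons. Ratios within libraries used a pseudocount of 1. DESeq2 1.42.0 and limma 3.58.1 gave alternatives. The test was checked on simulated counts.

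The members and lists were chosen with earlier results of these data known. All members are named, with list genes that had the highest counts or went against their list. Other genes named were chosen from the lists after their values were seen. Some list genes are not reported here. Genes most alike in pattern were planned but are not given, since the 8 libraries fall into 2 clusters. Nothing states that replicates came from separate litters, so p-values measure the spread between these samples. Within each population every pair of libraries differed beyond sampling noise. Totals differ so little that depth is alike, and precision is limited by low ENCDC counts. Same-numbered libraries did not deviate together (correlations of -0.013 to 0.032). The interval the table gives for *Nkx2-5* is shorter than the annotated gene. smRNA-seq was not analysed here.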

Additional observations from a re-analysis of the deposited data

Results flagged for a closer look

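Among 4 ENCDC libraries, replicate 3 lay far from the others for 3 of the 10 factors by Dixon's criterion for 4 samples. *Barx1* was at 316 normalized counts there and at 17.3 to 39.2 in replicates 1, 2 and 4. *Six2* was at 111 against 6.09 to 18.3, and *Nkx3-2* was at 52.2 against 5.16 to 12.2. Over 52 groups of libraries examined, chance alone marks about 5 in 100, and these 3 share a library with raised mesenchyme, smooth muscle and mesothelium genes, whose part was not tested.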

How the results depend on the processing

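Under 15 other settings (RLE or no factors, other filters on low counts, DESeq2, voom and limma, a replicate block, and each library left out), 10 of 10 factors were called lower and 0 higher, with a largest adjusted p of 0.00586 (*Nkx2-5*). Leaving out ENCDC replicate 3 moved *Barx1* most among the 10 factors, from -3.87 to -5.60 on the log2 scale, and without it *Six2* was at -5.25. For *Isl1* the range over all settings was -3.35 to -3.16. The number of Hedgehog genes called higher was 0 with voom and limma and 0 when ENCDC replicate 2 or 3 or any 1 gut library was left out (*Dhh*). The number of other mesenchyme factors called higher was 1 with the replicate block, and 1 without ENCDC replicate 1 or gut replicate 1 or 2 (*Nr2f1*). The replicate block lost the call of *Foxc2* (adjusted p = 0.0634), and replicate numbers were not shown to pair the libraries. Calls of 13 of 60 single genes changed in some setting, and 0 of 10 members were among them. Calls of *Sox9*, *Smo*, *Ihh* and *Twist2* were lost when single libraries were left out (largest adjusted p 0.0707, 0.109, 0.0621 and 0.0596). Of 1203 recomputed values 0 were marked as reversed, a mark that required a change of sign where a call was made. Counts of calls could not receive it. Neither could the permutation results, none of which passed, so changes of sign among those were not counted. With 4 against 3 libraries fewer relabellings are possible, and the permutation comparisons were given no test there. *Foxl1* and *Nkx2-5* rest on few ENCDC counts.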
